A study of Mus musculus with 8 samples.

Results

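The genes described here carry signals between the intestinal epithelium and the mesenchyme beneath it. They are 46 ligands, receptors, antagonists, intracellular transducers and target genes of the hedgehog, BMP, PDGF and TGF-beta pathways. Every probe set annotated with exactly 1 gene symbol from that list was taken. This gave 103 probe sets for 45 of the 46 genes, with no such probe set for Bmp3. Of these, 89 probe sets were bright enough to test and covered 42 genes. Foxl1, Bmpr1b and Smad9 were measured but too dim for the test. The arrays compared small intestines of Plagl2 knockout and wild-type mice at 18.5 days post coitum (dpc), just before birth, with 4 samples of each genotype and 1 array per sample. Plagl2 is a member of the PLAG family of zinc finger transcription factors. The labels give no strain, no litter, no sex and no account of which part of Plagl2 was deleted or of how the allele was made. They name no treatment and no other allele in either group. Nothing states that the samples came from separate litters, so p-values measure only the spread between these samples.

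Hedgehog ligands in the developing intestine are made by the epithelium and act on the mesenchyme. There they bind Patched receptors, which relieves the block on Smoothened and lets GLI transcription factors switch on targets, among them Ptch1, Hhip and Gli1 themselves and the FOXF and FOXL1 factors. PDGF-A is also made by the epithelium and is received by PDGFRA on the mesenchymal cells that gather under forming villi. BMP ligands act through type I and type II receptor kinases that phosphorylate SMAD1, SMAD5 and SMAD9. With the common partner SMAD4 these induce the ID genes and the inhibitory SMADs, which feed back on the pathway. TGF-beta uses the same layout with SMAD2 and SMAD3.

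The targeted gene bore out the genotype labels. The brightest Plagl2 probe set, 1417517_at, gave signals of 824, 817, 697 and 796 in wild-type replicates 1 to 4 and of 3, 6, 5 and 11 in knockout replicates 1 to 4, and the groups lay far apart. The extraction note of all 8 samples calls the tissue wild-type, whereas the titles, the sources and the series design give 4 knockouts. Median signals were 36 to 42 per array. Wild-type replicate 3 stood apart from its group on the principal component that separated the genotypes, at -21.9 against -44.7 to -43.3 for the other wild-type arrays and 35.7 to 40.7 for the knockouts. Xist was bright only in knockout replicates 2 and 3, at 1828 and 1410, against 20 to 47 in the other arrays. The Y-linked Eif2s3y gave 7 and 3 in knockout replicates 2 and 3 and 562 to 770 in the other arrays. By these genes knockout replicates 2 and 3 read as female and the other arrays as male, so sex was unbalanced between the genotypes. The end ratio, taken here as how much brighter control probe sets near the 3' end of a transcript are than those near its 5' end (log2), reads RNA integrity and was higher in the knockouts by 0.064 (exact two-sided permutation p = 0.0286, the smallest that 4 against 4 samples can give). The part of sex or of RNA quality in the results below was not tested beyond the fits with those measures as covariates. Every knockout end ratio (0.017 to 0.098) lay above every wild-type one (-0.055 to 0.0066). The fit with the end ratio therefore cannot tell RNA quality from genotype. All 8 epithelial markers passed the filter on dim probe sets, as did all 8 fibroblast markers.

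Of the 42 tested genes, 8 differed between the genotypes at an adjusted p under 0.05 in the limma fit across all probe sets, which is what "called" means here. By the brightest tested probe set of each gene, Ihh, Bmp7, Smad6, Smad7 and Id2 fell in the knockout, and Bmpr1a, Pdgfrb and Smad4 rose. Another Smad4 probe set was called lower, so the rise of Smad4 holds for its brightest probe set only. Called genes made up 19% of the members against 15.1% of all 12838 tested genes, so the share is near the background. In each direction the counts were 3 higher, beside 6.6% of all genes, and 5 lower, beside 8.5% of all genes. The other 34 genes were not called, and 17 of the 42 had an unadjusted p under 0.05. Fold changes are given throughout as log2 differences, knockout minus wild-type, on the log2(signal + 16) scale. Their median was 0.083 over the members and 0.025 over all genes, with 25 members above and 17 below 0. Bmp7 alone among them was called with a change of at least 2-fold, a class that held 4.63% of all genes. In 13 of the 42 genes (31%) the lowest array of one genotype lay above the highest of the other, compared with 19.9% of all genes.

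**Figure D1:**
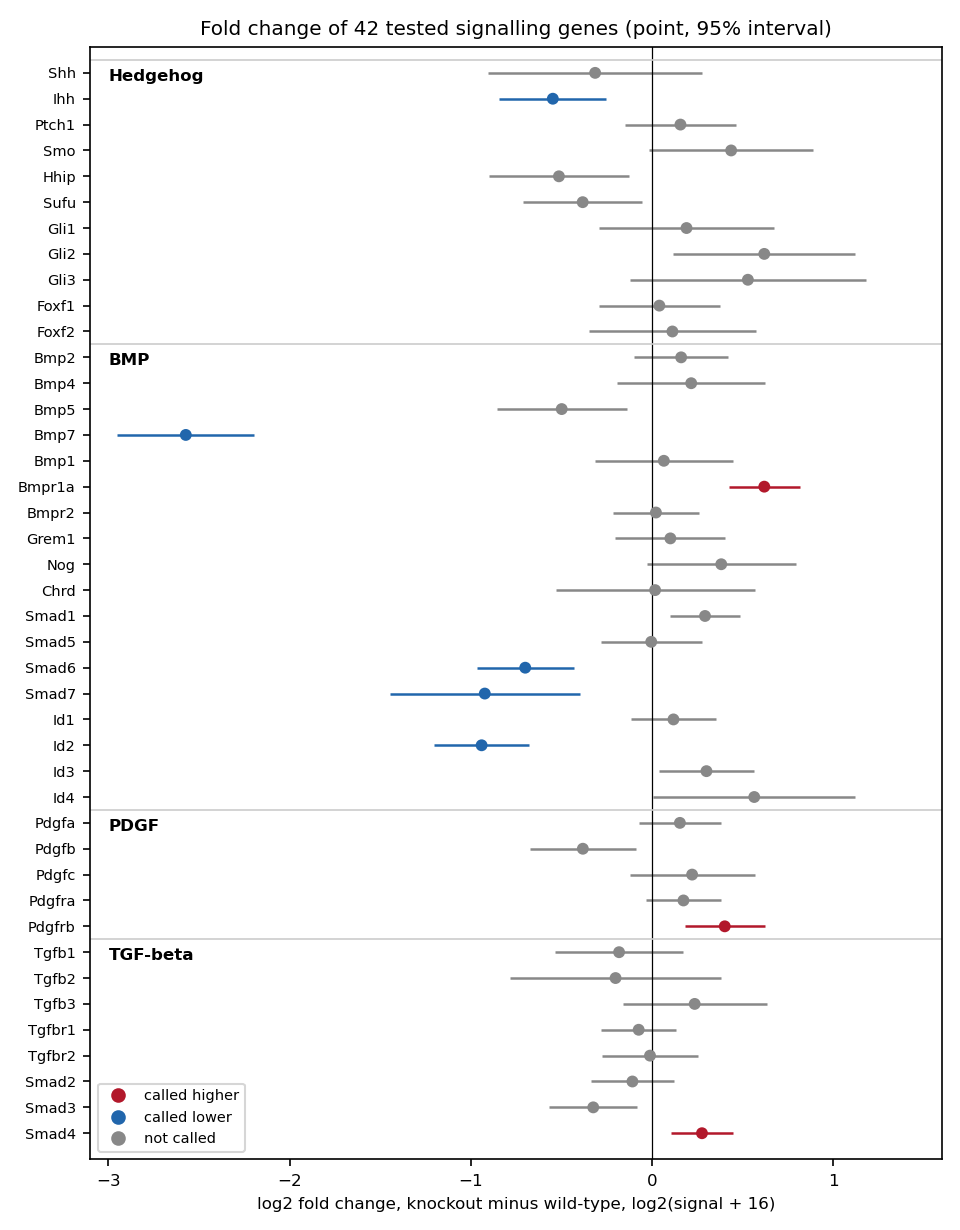
Log2 fold change (horizontal axis, knockout minus wild-type, log2(signal + 16)) of the 42 tested genes, 1 row per gene and grouped by pathway, with points for the estimate and lines for the 95% interval from limma on 4 against 4 arrays. Bmp7 lies far to the left at -2.57, Smad6, Smad7, Id2 and Ihh are the other called genes on the left, and Bmpr1a, Pdgfrb and Smad4 are called on the right, while the intervals of most of the 34 uncalled genes cross 0.

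Indian hedgehog fell, and no receptor, GLI factor or FOX target of the pathway was called. Ihh encodes the main hedgehog ligand of the differentiating intestinal epithelium. Its probe set 1450704_at gave signals of 182, 206, 168 and 158 in wild-type replicates 1 to 4 and of 101, 135, 106 and 127 in knockout replicates 1 to 4. Every knockout array lay below every wild-type array. The log2 fold change was -0.55 ± 0.13 (SE, n = 4 per genotype) with a limma adjusted p of 0.0203. Leaving out the first or second wild-type array or the first knockout array ended the call, at adjusted p of 0.0604, 0.0724 and 0.0659. It was also lost with the replicate number as a block (adjusted p = 0.0622), with Xist as a covariate (0.0705), in the 6 arrays without Xist (0.0625) and with the end ratio as a covariate (0.212).

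Sonic hedgehog, the other ligand measured, was dim. Shh gave 41, 38, 118 and 52 in the wild-types and 34, 53, 38 and 47 in the knockouts, with wild-type replicate 3 above all other arrays. Its log2 fold change was -0.31 with a 95% interval of -0.90 to 0.27, and it was not called (limma adjusted p = 0.514).

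On the receiving side, Ptch1 encodes the ligand-binding receptor and is itself a hedgehog target. Its signals were 1203, 1126, 1478 and 1114 in the wild-types and 1534, 1371, 1030 and 1597 in the knockouts, with the groups interleaved. The log2 fold change was 0.16 (95% interval -0.15 to 0.46, limma adjusted p = 0.536). Smo, the signal transducer that Patched holds in check, had signals of 83 to 167 in wild-types and 113 to 197 in knockouts, with a change of 0.44 (adjusted p = 0.212). Gli1, whose transcription follows pathway activity, gave 51, 25, 51 and 49 in the wild-types and 73, 46, 38 and 52 in the knockouts. These groups overlapped, and the log2 fold change was 0.19 with a 95% interval of -0.29 to 0.67 (adjusted p = 0.641). The fall of Ihh was measured beside Ptch1 and Gli1 values whose intervals include 0 and reach below it.

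Gli2 and Gli3, the primary transducers of the signal at the promoter, were not called either. Gli2 had signals of 88, 84, 140 and 76 in the wild-types and 160, 153, 98 and 229 in the knockouts. Its log2 fold change was 0.62 ± 0.23 (SE), with an adjusted p of 0.111. Wild-type replicate 3 was the highest wild-type and knockout replicate 3 the lowest knockout, and leaving out either removed the overlap. Without wild-type replicate 3 the change was 0.78 (limma adjusted p = 0.0343), and without knockout replicate 3 it was 0.81 (adjusted p = 0.0268). Gli3 also had replicate 3 highest among wild-types and lowest among knockouts, at 82, 84, 122 and 50 against 153, 126, 60 and 196. Its log2 fold change was 0.53 (adjusted p = 0.299) and became 0.82 without knockout replicate 3 (adjusted p = 0.0439). These values are from the brightest probe set of each gene. The second Gli2 probe set, 1446086_s_at, was uncalled at 0.31. The other Gli3 probe sets, 1455154_at and 1450525_at, were uncalled at 0.41 and -0.30.

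Inhibitors of the pathway had negative values that missed the threshold. Hhip, a surface protein that sequesters hedgehog ligands and is a pathway target, gave 140, 102, 147 and 125 in the wild-types and 110, 100, 64 and 71 in the knockouts. The log2 fold change was -0.51 ± 0.18 (SE, adjusted p = 0.0858). The other Hhip probe sets 1455277_at, 1421426_at and 1438083_at gave log2 fold changes of -0.42, -0.47 and -0.30, none called. Sufu, which retains GLI proteins in the cytoplasm, had signals of 144 to 166 in the wild-types and 90 to 139 in the knockouts. Its groups did not overlap, and the change was -0.38 (adjusted p = 0.130). The dimmest tested Sufu probe set, 1420848_at, had a value of -0.43 (adjusted p = 0.186), also without overlap. The remaining Sufu probe set, 1431713_at, had a value of the opposite sign, 0.32 (adjusted p = 0.325).

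FOXF factors, made by gut mesenchyme in answer to hedgehog, were also uncalled. Foxf1 had signals of 361 to 441 in wild-types and 300 to 506 in knockouts by 1434939_at, with a change of 0.040 (adjusted p = 0.900), and 0.47 by its second probe set, 1423013_at (adjusted p = 0.0812). Foxf2 had a change of 0.11 (adjusted p = 0.790). The probe sets of Foxl1, a factor of the subepithelial fibroblasts, were too dim to test.

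Many of these genes shared an order of arrays within each genotype with mesenchyme markers and with some other lists. Wild-type replicate 3 had the highest and knockout replicate 3 the lowest signal of its genotype in 7 of the 11 tested hedgehog genes (Ptch1, Smo, Hhip, Gli1, Gli2, Gli3 and Foxf1). Ties are included in all these counts, as in Gli1, where wild-type replicates 1 and 3 both gave 51. The same order held in 13 of the 42 members (31%) and in 2458 of all 12838 genes (19.1%). It held in 6 of 8 fibroblast markers, in 7 of 7 tested smooth muscle markers, in 4 of 5 tested enteric neuron and glia markers, in 3 of 6 leukocyte markers, in 1 of 6 endothelial markers and in 0 of 8 epithelial markers. The summed signal of the fibroblast markers, led by collagen genes, was 13011, 11681, 15734 and 10721 in the wild-types and 17522, 15360, 11524 and 19656 in the knockouts. For smooth muscle it was 10915, 9518, 13703 and 7933 in the wild-types and 13904, 13726, 10136 and 16677 in the knockouts. Both sums overlapped between genotypes, although 8 of 8 fibroblast and 7 of 7 tested smooth muscle markers had positive fold changes, with medians of 0.37 and 0.51. By limma 0 of these 15 marker genes were called, and 4 of each list had an unadjusted p under 0.05. Epithelial sums were 21960 to 25050 in the wild-types and 22081 to 28773 in the knockouts. In whole intestine, fewer cells of a type and less RNA per cell cannot be told apart. The part of the mesenchyme's share in the hedgehog values was not tested.

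**Figure D2:**
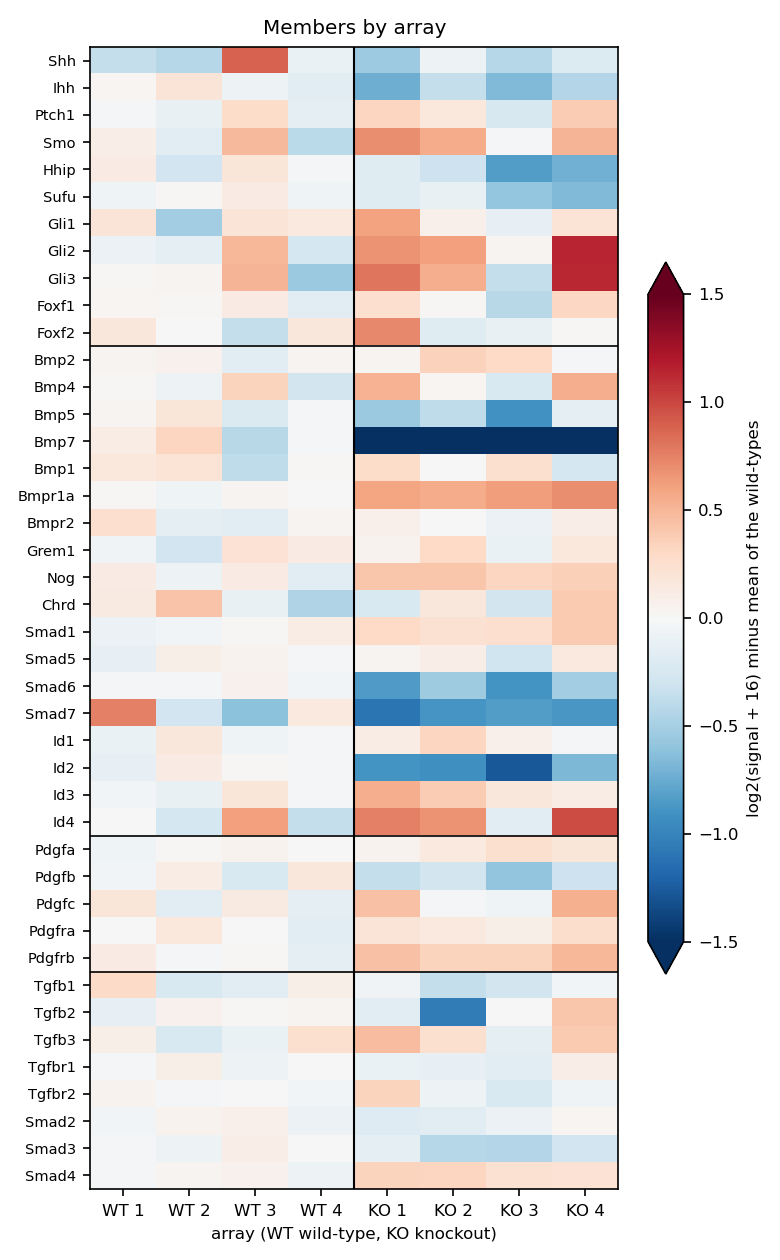
Log2(signal + 16) of the 42 tested genes (rows, by pathway) in each of the 8 arrays (columns, WT for wild-type and KO for knockout), as a difference from the mean of the wild-type arrays (colour, log2 units, ends at -1.5 and 1.5). All 4 knockout arrays are blue for Bmp7, Smad6, Smad7 and Id2 and red for Bmpr1a and Pdgfrb, whereas Gli2, Gli3, Id4 and Smo are reddest in WT 3 among wild-types and palest or blue in KO 3 among knockouts.

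**Figure D3:**
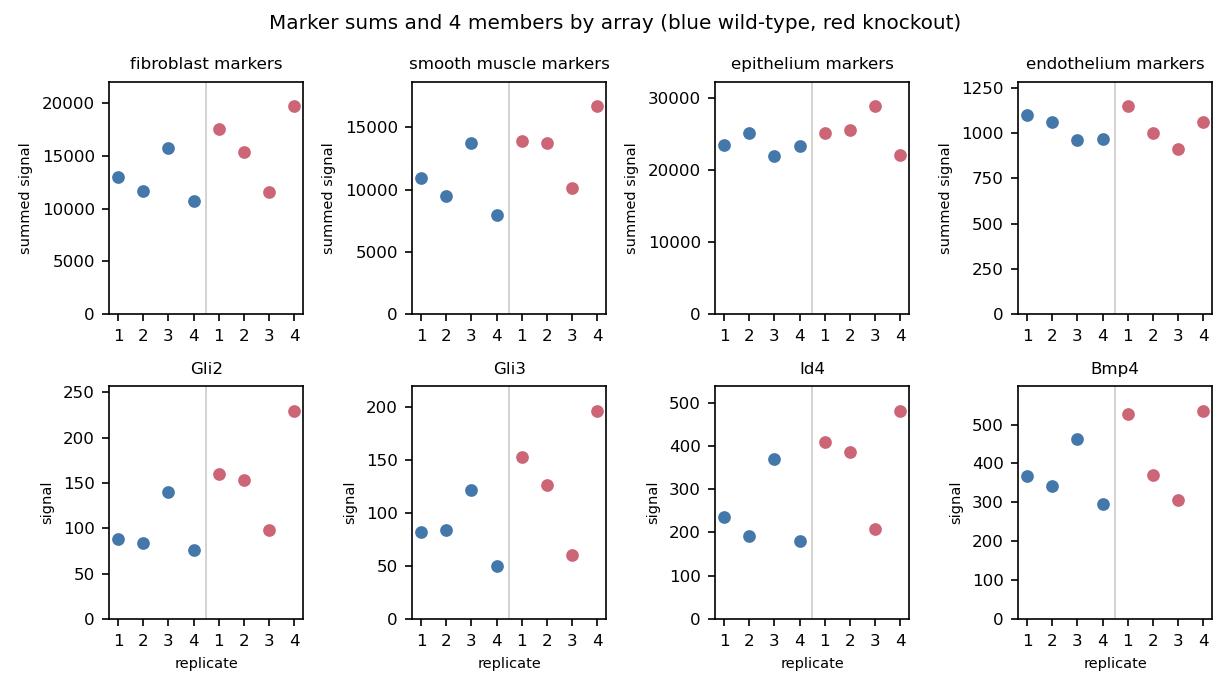
Summed signal of the fibroblast, smooth muscle, epithelium and endothelium markers (upper panels) and signal of Gli2, Gli3, Id4 and Bmp4 (lower panels) in each array, on linear axes from 0, with blue points for wild-type and red points for knockout replicates 1 to 4. In the fibroblast and smooth muscle panels wild-type replicate 3 is the highest wild-type and knockout replicate 3 the lowest knockout, as it is for the 4 signalling genes, while in the epithelium panel wild-type replicate 3 is the lowest wild-type (21960) and knockout replicate 3 the highest knockout (28773).

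The epithelial list and the remaining cell type lists held 0 to 3 called genes each. Leukocyte markers summed to 3612 to 5038 in the wild-types and 1128 to 1601 in the knockouts, and 1 of 6 was called, Csf1r, which fell (-2.38). Csf1r made up most of that sum, at 2874 to 4306 against 628 to 858, and the 5 uncalled leukocyte markers summed to 646 to 738 in the wild-types and 465 to 743 in the knockouts, with overlap. The mesothelium sums were 501 to 579 against 216 to 408, with Upk3b called lower (-1.17, from 388 to 486 down to 152 to 225). The uncalled mesothelium markers Msln (-0.013) and Lrrn4 (0.43) overlapped between the genotypes. Endothelial markers summed to 964 to 1099 in the wild-types and 912 to 1148 in the knockouts, and 0 of 6 were called by limma, with 0 at an unadjusted p under 0.05. In the epithelial list 3 of 8 markers were called (37.5%, beside 15.1% of all genes), with Krt8 and Krt19 higher and Krt18 lower. In the liver list 2 of 5 were called (40%), Ttr (-1.87) and Cps1 (-0.31), both lower. In that list Alb was uncalled at 1.92, with 656 and 4646 in knockout replicates 1 and 4, 4 and 32 in the other knockouts and 15 to 122 in the wild-types, Hnf4a was uncalled at 0.099 and Serpina1b at -1.08. S100b was lower in the list of enteric neurons and glia (-0.89), and 0 of 5 pancreas markers were called, with 0 at an unadjusted p under 0.05. No marker probe set stood at 0 in any array. Their part in the changes of the signalling genes was not tested.

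The BMP pathway held 5 of the 8 called genes, among 18 tested of its 21 (27.8%, beside 15.1% of all genes). Bmp7, a secreted BMP ligand, fell most of all members. Its brightest probe set, 1418910_at, gave 347, 406, 237 and 315 in wild-type replicates 1 to 4 and 40, 51, 42 and 31 in knockout replicates 1 to 4. Every knockout signal was far under the lowest wild-type signal. The log2 fold change was -2.57 ± 0.17 (SE, 95% interval -2.95 to -2.19, limma adjusted p = 2.5e-06). The second probe set, 1435479_at, gave 205, 143, 242 and 236 against 103, 60, 35 and 71, a change of -1.46 ± 0.24 (adjusted p = 0.00183). The third, 1432410_a_at, gave 152, 166, 101 and 159 against 35, 6, 14 and 2, a change of -2.50 ± 0.29 (adjusted p = 0.000152). All 3 probe sets thus fell with no overlap between genotypes, and each kept its call in every alternative fit in which it was tested.

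None of the other BMP ligands was called. Bmp4, a mesenchymal ligand and hedgehog target, gave 368, 341, 462 and 295 in the wild-types and 528, 369, 306 and 534 in the knockouts, again with replicate 3 at opposite ends of its genotypes. Its log2 fold change was 0.22 with a 95% interval of -0.19 to 0.62 (adjusted p = 0.518). Bmp5, another ligand of the family, had negative values from all 3 tested probe sets, -0.50, -0.44 and -0.49 (adjusted p = 0.0734, 0.0704 and 0.258). Bmp5 passed the threshold without wild-type replicate 3 (adjusted p = 0.0463) and without knockout replicate 4 (adjusted p = 0.0259). Bmp2 had signals of 281 to 330 in the wild-types and 307 to 402 in the knockouts, with a log2 fold change of 0.16 (adjusted p = 0.436). Bmp1, which despite its name is a protease that processes collagens and the BMP antagonist chordin, had a log2 fold value of 0.065 (adjusted p = 0.856).

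The type I receptor Bmpr1a rose. By 1425492_at its signals were 390, 367, 395 and 387 in the wild-types and 589, 572, 604 and 634 in the knockouts. Both groups were tight and clearly separate. The log2 fold change was 0.62 ± 0.089 (SE, 95% interval 0.42 to 0.81, limma adjusted p = 0.000671). Probe sets 1425493_at (0.46, adjusted p = 0.0434) and 1425491_at (0.45, adjusted p = 0.0484) were called too. Each of those calls was lost when any array but wild-type replicate 3 was left out (adjusted p = 0.0752 to 0.127 and 0.0666 to 0.141). Both were also lost with Xist as a covariate (adjusted p = 0.166 and 0.246) and in the arrays lacking Xist (0.170 and 0.231). With the end ratio as a covariate neither was called (0.0997 and 0.138). Probe set 1425494_s_at had a value of 0.41 (adjusted p = 0.0676), and the dimmest Bmpr1a probe set, 1451729_at, one of -0.072 (adjusted p = 0.859). The type II receptor Bmpr2 had a log2 fold change of 0.021 with a 95% interval of -0.22 to 0.26. Bmpr1b, the other type I receptor in the list, was too dim to test.

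The secreted antagonists Grem1, Nog and Chrd, which bind BMP ligands, were not called. Nog was barely above the filter, at 23, 18, 23 and 16 in the wild-types and 32, 32, 29 and 30 in the knockouts. Its groups did not overlap, and the log2 fold change was 0.38 (adjusted p = 0.230). Grem1 and Chrd had log2 fold changes of 0.10 and 0.017.

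Both inhibitory SMADs fell. Smad6, which blocks BMP type I receptors and is induced by BMP signalling, gave 294, 294, 313 and 290 in the wild-types and 158, 201, 152 and 203 in the knockouts. The groups were well separated, with a log2 fold change of -0.70 ± 0.12 (SE, 95% interval -0.97 to -0.43, limma adjusted p = 0.00262). With the end ratio as a covariate the Smad6 change was -0.57 and no longer called (adjusted p = 0.121). Smad7, which inhibits both BMP and TGF-beta receptors, gave 380, 177, 137 and 245 in the wild-types and 94, 111, 116 and 112 in the knockouts by 1443771_x_at. The wild-types spread widely, but each lay above all knockouts. The log2 fold change was -0.92 ± 0.24 (SE, adjusted p = 0.0268). The second Smad7 probe set, 1423389_at, gave 147, 170, 140 and 174 against 123, 162, 134 and 159, with overlap and a change of -0.12 (95% interval -0.41 to 0.17). So the fall of Smad7 rests on 1 of its 2 probe sets, and that call was lost without wild-type array 4, knockout array 1 or knockout array 2 (adjusted p = 0.0638 to 0.0764), with the replicate block (0.0697), with no intensity trend (0.0523), in the arrays lacking Xist (0.0956) and with Xist (0.0871) or the end ratio (0.113) as a covariate.

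The receptor-regulated SMADs were not called. Smad1 was the closest, at 665, 691, 718 and 770 in the wild-types and 876, 838, 845 and 936 in the knockouts. These groups did not overlap, and the log2 fold change was 0.29 ± 0.088 (SE, adjusted p = 0.0517). Smad1 passed the threshold with a stricter filter of 60% (adjusted p = 0.0382), quantile normalization (0.0448), array weights (0.0252) or without wild-type replicate 3 (0.0494). Smad5 had a log2 fold change of -0.0047 (95% interval -0.28 to 0.27). Smad9 was too dim to test.

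The ID genes, direct BMP targets whose proteins block basic helix-loop-helix factors, were called in 1 case of 4. Id2 fell, with signals of 1771, 2103, 1954 and 1895 in the wild-types and 1031, 1007, 787 and 1205 in the knockouts by 1435176_a_at. No arrays overlapped, and the log2 fold change was -0.94 ± 0.12 (SE, 95% interval -1.20 to -0.68, limma adjusted p = 0.000288). A second probe set, 1422537_a_at, gave 607, 649, 615 and 668 against 357, 417, 288 and 330, a change of -0.85 ± 0.12 (adjusted p = 0.000489). The third Id2 probe set, 1453596_at, was dim and uncalled at -0.48 (adjusted p = 0.214).

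Id1, Id3 and Id4 had positive values, none called. Id1 gave 471, 571, 483 and 496 in the wild-types and 544, 635, 531 and 492 in the knockouts, with a log2 fold change of 0.12 (95% interval -0.12 to 0.35, adjusted p = 0.545). Id1 lies on chromosome 2 with Plagl2, separated from it by 13 protein-coding genes in the RefSeq order. Bmp2, Bmp7 and Grem1 are on the same chromosome, and of these members only Bmp7 was called. Id3 had a value of 0.30 (adjusted p = 0.138). Id4 gave 236, 193, 369 and 180 in the wild-types and 408, 385, 209 and 480 in the knockouts, once more with replicate 3 out of line in both genotypes. Its log2 fold change was 0.56 (adjusted p = 0.191), and 0.77 without wild-type replicate 3 (adjusted p = 0.0460) or 0.80 without knockout replicate 3 (adjusted p = 0.0305). Of the 4 ID genes, then, the one that passed the test fell while the others had values above 0.

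**Figure D4:**
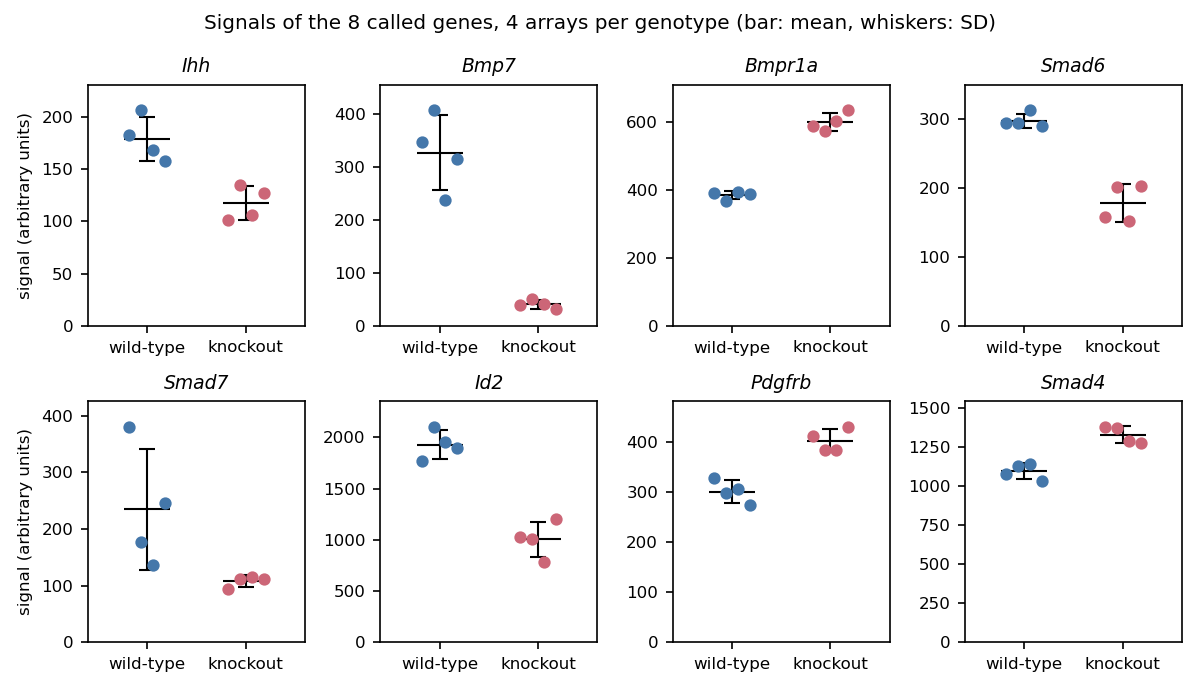
Signal (arbitrary units, linear axis from 0) of the 8 called genes in the 4 wild-type and 4 knockout arrays, with a point for each array, a bar for the mean and whiskers for the SD. The genotypes do not overlap in any of the 8 genes, the knockout points of Bmp7 lie at 31 to 51 under wild-type points at 237 to 406, and the wild-type points of Smad7 are the most scattered, at 137 to 380.

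Promoters of 3 called BMP genes are shown because they hold the motifs searched, each as the 250 bases before the transcription start, from RefSeq on GRCm38.p6, minus strand, read 5′ to 3′. Capitals mark GGCGCC, an element bound by SMAD1 and SMAD5, in Id2. The Bmpr1a window also holds 1 GGCGCC, which is left in lower case there. In Smad6 and Bmpr1a they mark matches to a PLAG-type site (GAGGC or GGGGC, then 6 to 8 bases, then GGG) on either strand, where overlapping matches run together. The windows are chr12:25096093-25096342 for Id2, chr9:64022060-64022309 for Smad6 and chr14:34502547-34502796 for Bmpr1a.
Id2: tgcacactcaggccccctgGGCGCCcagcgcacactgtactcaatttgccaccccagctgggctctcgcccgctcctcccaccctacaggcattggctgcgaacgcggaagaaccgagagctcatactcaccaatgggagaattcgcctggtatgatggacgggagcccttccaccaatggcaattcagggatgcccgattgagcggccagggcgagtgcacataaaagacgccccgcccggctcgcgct
Smad6: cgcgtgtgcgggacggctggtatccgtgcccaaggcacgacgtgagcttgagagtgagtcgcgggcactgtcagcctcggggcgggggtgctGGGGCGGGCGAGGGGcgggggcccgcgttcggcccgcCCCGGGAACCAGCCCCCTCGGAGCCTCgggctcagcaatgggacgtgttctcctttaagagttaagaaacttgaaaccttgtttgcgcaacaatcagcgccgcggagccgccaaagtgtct
Bmpr1a: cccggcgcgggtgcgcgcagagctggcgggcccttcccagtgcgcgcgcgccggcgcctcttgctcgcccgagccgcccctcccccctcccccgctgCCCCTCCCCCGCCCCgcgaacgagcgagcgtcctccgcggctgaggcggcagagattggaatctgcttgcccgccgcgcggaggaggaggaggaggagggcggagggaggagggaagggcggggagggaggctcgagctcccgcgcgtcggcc

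The Smad6 window held 5 PLAG-type matches, the Bmpr1a window 2, and the Id2 window 0. Those of Smad6 overlap within separate capital stretches. GC content was 66.8% in the Smad6 window, 78.8% in that of Bmpr1a and 62.8% in that of Id2. The windows of Ihh, also a called gene, and of Smad3 are not printed and held 0 matches to every motif searched. Of the members, 30 genes with 36 promoters were found in the promoter table. Bmp7 was not among them, so its promoter was not searched. PLAG-type matches stood in 15 of the 30 genes and 15 of the 36 promoters, beside 19.9% of all 32851 promoters in the table. Apart from Smad6 and Bmpr1a, the genes with a match were uncalled ones such as Bmp4, Gli2 and Pdgfa. GGCGCC stood in 11 of the 30 genes and 11 of the 36 promoters, beside 9.59% of all promoters. The genes with it included the called Id2 and Bmpr1a and uncalled ones such as Ptch1, Smad5 and Id4. Both motifs are rich in G and C. The GLI site GACCACCCA and the SMAD3/4 element GTCTAGAC were each found in 0 of the 36 member promoters, and in 0.225% and 0.167% of all promoters. All motifs were searched on both strands, and a match says only that the letters are there.

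Among PDGF genes the receptor Pdgfrb rose. PDGFRB is the receptor of pericytes and other mural cells. By 1436970_a_at it gave 329, 298, 306 and 274 in the wild-types and 413, 384, 385 and 431 in the knockouts. The groups did not overlap, and the log2 fold change was 0.40 ± 0.10 (SE, 95% interval 0.18 to 0.62, limma adjusted p = 0.0228). A dimmer Pdgfrb probe set, 1417148_at, had a value of 0.18 (adjusted p = 0.692). The call was lost without wild-type array 2 or 4 or without knockout array 1, 2 or 4 (adjusted p = 0.0505 to 0.0757), with the replicate block (0.103), in the arrays lacking Xist (0.0579), with the end ratio as a covariate (0.231) and with the mean of both probe sets (0.220).

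The epithelial ligand and mesenchymal receptor of villus clusters, Pdgfa and Pdgfra, were not called. Pdgfa gave 203, 217, 222 and 214 in the wild-types and 222, 238, 255 and 245 in the knockouts, touching at 222. Its log2 fold change was 0.15 (95% interval -0.071 to 0.38, adjusted p = 0.388). Pdgfra gave 758, 854, 760 and 680 in the wild-types and 869, 843, 811 and 919 in the knockouts, with overlap and a change of 0.17 (95% interval -0.034 to 0.38, adjusted p = 0.282). Pdgfb, a ligand of PDGFRB made by endothelium, gave 156, 175, 135 and 183 against 122, 131, 102 and 127. Its groups did not overlap, and its log2 fold change of -0.38 missed the threshold (adjusted p = 0.0921), except without wild-type replicate 3 (adjusted p = 0.0393). Pdgfc had a change of 0.22 (adjusted p = 0.422).

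In the TGF-beta group the ligands Tgfb1, Tgfb2 and Tgfb3 and the receptors Tgfbr1 and Tgfbr2 were not called, with log2 fold changes of -0.18, -0.20, 0.24, -0.074 and -0.011. None of these 5 had an unadjusted p under 0.05. The other tested Tgfb2 probe sets, 1450923_at and 1450922_a_at, had values of the opposite sign, 0.29 and 0.27, neither called. Smad2, a TGF-beta-regulated SMAD, gave -0.11 (adjusted p = 0.569). Its second probe set, 1442062_at, was uncalled with the opposite sign, at 0.14.

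Smad3, the other TGF-beta-regulated SMAD, differed by probe set in size but not in sign. The brightest, 1454960_at, gave 283, 271, 309 and 288 in the wild-types and 261, 209, 207 and 232 in the knockouts, without overlap and with a log2 fold change of -0.32 ± 0.11 (adjusted p = 0.0856). Probe set 1450472_s_at fell, from 97, 86, 106 and 89 to 72, 42, 49 and 70, a change of -0.59 (adjusted p = 0.0413). That call was lost when any wild-type array or knockout replicate 2 or 3 was left out (adjusted p = 0.0728 to 0.120). Probe set 1450471_at also fell, from 49, 71, 45 and 54 to 25, 11, 10 and 15, a change of -1.19 ± 0.22 (adjusted p = 0.00326). The mean of the 3 Smad3 probe sets gave -0.70 (adjusted p = 0.00423).

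Smad4, the common partner of both branches, gave opposite results from its probe sets. Probe set 1422487_at, the brightest, gave 1079, 1128, 1147 and 1036 in the wild-types and 1382, 1375, 1290 and 1279 in the knockouts. It rose by 0.28 ± 0.079 on the log2 scale (SE, limma adjusted p = 0.0426). Probe set 1422485_at gave 712, 762, 726 and 614 against 426, 448, 584 and 601 and fell by 0.45 on the log2 scale (adjusted p = 0.0423). The remaining Smad4 probe set, 1422486_a_at, was uncalled at 0.069 (adjusted p = 0.660). Each call was lost when any of 5 single arrays was left out (adjusted p = 0.0880 to 0.130 for the rise and 0.0602 to 0.132 for the fall), with the replicate block (0.157 and 0.128), with no intensity trend (0.124 and 0.0877) and with no filter (0.0561 and 0.0580). Both were also lost with Xist as a covariate (adjusted p = 0.138 and 0.137) and in the arrays lacking Xist (0.143 and 0.110). With the end ratio as a covariate neither was called (0.334 and 0.540). The mean of the Smad4 probe sets had a change of -0.035, so a direction for the gene as a whole depends on the probe set.

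**Figure D5:**
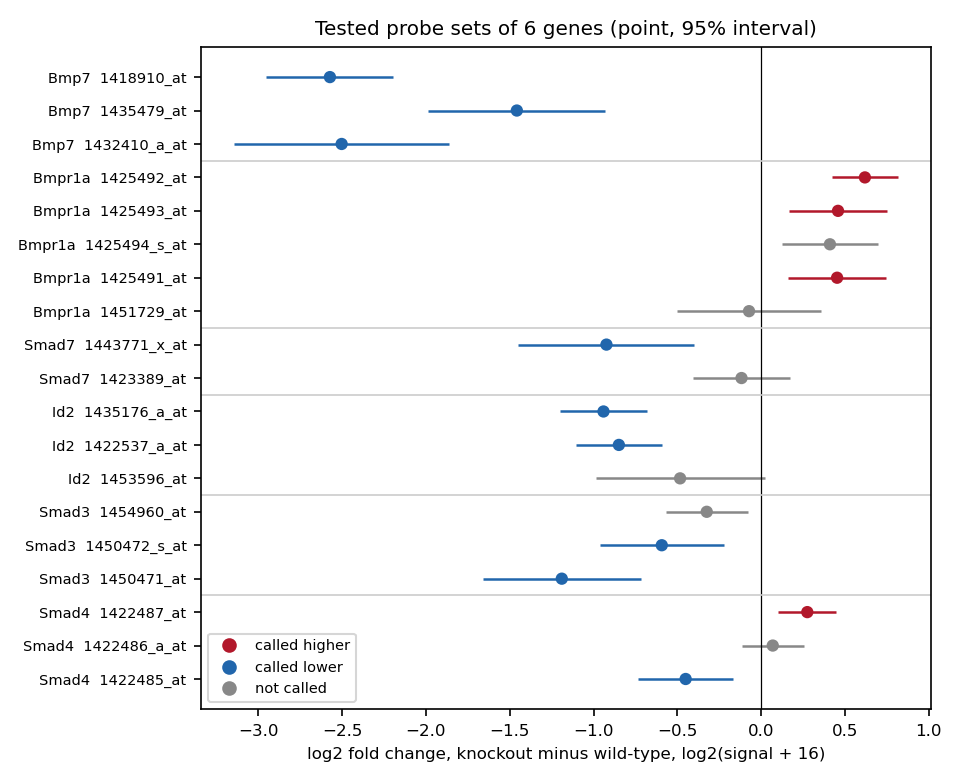
Log2 fold change (horizontal axis, knockout minus wild-type, log2(signal + 16)) with 95% interval for each tested probe set of Bmp7, Bmpr1a, Id2, Smad3, Smad4 and Smad7. All Bmp7 and Smad3 probe sets lie left of 0, Smad4 has 1 called probe set on each side of 0, and 1 of the 2 Smad7 probe sets lies close to 0.

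Counted by probe set, 5 of the 89 tested were called higher, beside 5.28% of all tested probe sets, and 11 were called lower, beside 6.7%. They belonged to 9 genes, the 8 named above and Smad3. More than 1 probe set was tested for 28 of the 42 genes.

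Other genes of the same pathways were counted in the same way. Of 92 listed symbols, with Ctgf and Ccn2 naming the same gene, 70 were tested. The called ones numbered 5 (7.14%), beside 15.1% of all genes. Of these, 2 were higher and 3 lower, beside 6.6% and 8.5% of all genes. By limma 0 of 16 other hedgehog genes (coreceptors, ligand release and ciliary factors) and 0 of 19 other BMP genes were called, with 1 and 2 at an unadjusted p under 0.05. Among 12 other PDGF genes, Pik3r1, a regulatory subunit of phosphoinositide 3-kinase, rose from 319, 312, 329 and 350 to 617, 543, 527 and 451 (log2 fold change 0.67 ± 0.11, adjusted p = 0.00175). The genotypes did not overlap in it.

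The 23 other TGF-beta genes held 4 called ones (17.4%, near the 15.1% of all genes). Tgfbi, an extracellular matrix protein induced by TGF-beta, rose from 1147, 1066, 1131 and 1085 to 1757, 1707, 1627 and 1795 (0.63 ± 0.077, adjusted p = 0.000206), and all 4 of its probe sets were called higher. Acvr1c, the type I receptor ALK7, fell from 138, 140, 108 and 142 to 22, 45, 21 and 42 (-1.64 ± 0.20, adjusted p = 0.000191). Itgav and Itgb6 encode the subunits of the epithelial integrin that releases TGF-beta from its latent form, and both fell. Itgav went from 1258, 1377, 1216 and 1541 to 940, 959, 822 and 998 (-0.53 ± 0.10, adjusted p = 0.00486). Itgb6 went from 148, 133, 104 and 173 to 33, 83, 86 and 47 (-1.04 ± 0.24, adjusted p = 0.0143), and its call was lost with the replicate block (adjusted p = 0.0581). With the end ratio as a covariate Pik3r1 (adjusted p = 0.110), Itgav (0.0687) and Itgb6 (0.243) were no longer called. In all 4 genes the arrays of one genotype lay wholly above those of the other.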

How the data were processed

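Total RNA of whole small intestine was copied from an oligo-dT primer, labelled with biotin and hybridised to Affymetrix MOE430 2.0 arrays, per the labels' protocols. The authors deposited 1 linear signal intensity per probe set and array, for 45101 probe sets and with 2%-trimmed array means of about 150.05, so each array was already scaled. The signal algorithm is not given in the sources used here. No detection calls were used. Groups follow the sample titles. Control probe sets (64) and the 40% of the other 45037 that were dimmest on average (a mean signal below about 23.0) were not tested. The remaining 27022 were fitted as log2(signal + 16) with limma 3.58.1 in R 4.3.3 (lmFit, eBayes with an intensity trend, genotype only, two-sided, Benjamini-Hochberg over all tested). A gene stands for its brightest tested probe set. The offset makes fold changes of dim genes smaller. Probe sets are named from the platform annotation, and all 103 had the same symbol by Entrez ID in RefSeq GRCm38.p6. The test was checked on simulated data. The members, gene lists, marker lists and motifs were chosen with earlier results of these data known. All members are accounted for by role, with the signals of every array for members with a called probe set and for Shh, Ihh, Ptch1, Gli1, Bmp4, Pdgfra and Pdgfa. Signals of each array were also given for other members whose groups or arrays are described. Up to 4 called genes of each other pathway list are named. The number of arrays limits the precision. The labels do not say whether replicate numbers pair the samples, and the main fit took them as unpaired. Deviations of same-numbered arrays from their group means correlated at -0.011, -0.046, -0.274 and -0.120. These values cannot decide it, since each group mean rests on only 4 arrays. Alternatives were other filters, offsets, normalization, array weights, covariates, thresholds and left-out arrays.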

Additional observations from a re-analysis of the deposited data

Results flagged for a closer look

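Of 84 groups of 4 arrays examined, those of the 42 tested genes in each genotype, 2 had 1 array far from the other 3 (by Dixon's gap over range at the 95% level). Chance gives about 1 in 20 such groups. Gli1 had a signal of 25 in wild-type replicate 2 against 49 to 51 in the other wild-types, with a gap of 0.938 of the range on the log2(signal + 16) scale. Bmp2 had 281 in wild-type replicate 3 against 323 to 330, with a gap of 0.866 of the range. Neither gene was called.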

How the results depend on the processing

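Bmp7, Id2 and Bmpr1a kept their direction and their call in all 22 alternative fits, with log2 fold changes of -2.96 to -1.88, -1.03 to -0.76 and 0.37 to 0.68. Smad6 kept its call in 21 of 22, Ihh in 14, Smad7 in 13, Pdgfrb in 12 and Smad4 in 9. The counts of called members, 3 higher and 5 lower, became 1 and 3 with the replicate number as a block, and 1 and 3 at an adjusted p under 0.01. With array weights they became 8 and 7, adding Smo, Gli2, Smad1, Id3 and Id4 above and Bmp5 and Pdgfb below. Adjusted for the end ratio they were 1 and 2. Adjusting for Xist, or using only the 6 arrays that lack it, 3 members were lower. Without wild-type replicate 3 and knockout replicate 4 together, 5 were higher, and with a gene taken as the mean of its probe sets 1 was higher. Gli2 was also called in the arrays lacking Xist (0.91, adjusted p = 0.0461) and without wild-type replicate 3 and knockout replicate 4 (0.61, adjusted p = 0.0499). Leaving out 1 array at a time gave 1 to 6 members higher and 3 to 7 lower. The counts of the other pathway genes, 2 higher and 3 lower, became 6 and 5 with array weights and 5 and 5 without wild-type replicate 3 and knockout replicate 4. Higher genes were 4 after adjusting for Xist and 6 in the arrays lacking it, and 1 was lower with the end ratio as a covariate. Leaving out 1 array gave 2 to 8 higher and 3 to 5 lower. The cause was not tested. The replicate block ended the calls of Ihh, Smad7, Pdgfrb, Smad4 and Itgb6, 1 dimmer probe set of Smad3 and of Smad4, and both dimmer called ones of Bmpr1a, and it changed no other call among the 56 genes and probe sets refitted, which do not include the cell type markers.

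Signs changed in 46 of 1215 alternative values, in 45 of them with no call in either fit, and the causes were not tested. The exception was Smad4, at -0.035 with the mean of its probe sets, where Bmpr2 was -0.025, Tgfb2 0.12 and Smad2 0.014. With array weights Chrd was -0.030, Smad5 0.042 and Tgfbr2 0.029. Adjusted for Xist, Smad5 was 0.086, Tgfb2 0.13 and Tgfbr2 0.15, and in the 6 arrays lacking it they were 0.094, 0.12 and 0.13. With the end ratio as a covariate Shh was 0.33, Foxf1 -0.036, Foxf2 -0.44, Bmp1 -0.35, Bmpr2 -0.091, Tgfb2 0.033 and Smad2 0.011. Without wild-type replicate 3 and knockout replicate 4 Foxf1 was -0.010, Bmpr2 -0.056, Chrd -0.15 and Tgfbr2 0.0079. Leaving out 1 array changed the sign of Bmp1 (-0.063 to 0.18), Bmpr2 (-0.030 to 0.11), Chrd (-0.13 to 0.16), Foxf1 (-0.050 to 0.19), Foxf2 (-0.089 to 0.21), Smad5 (-0.055 to 0.095), Tgfb2 (-0.41 to 0.081) and Tgfbr2 (-0.13 to 0.062). Dim genes such as Nog, Chrd, Gli1 and Shh have little signal over background.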
